A study of Saccharomyces cerevisiae with 4 samples.

Results

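The small subunit processome is the large particle that forms on the nascent ribosomal RNA precursor in the nucleolus. The 42 genes described here, of 4777 in the deposited single-cell data, encode proteins of the processome or factors that act with it. The genes were chosen by systematic name from a list of UTP proteins and other early small subunit assembly factors. The rule used no measured value, but it was set with earlier results of these data known. All 42 were in the matrix, and ratios were taken for the 24 that reached at least 50 UMIs over the 4 libraries. A UMI (Unique Molecular Identifier) marks 1 captured mRNA molecule, so that PCR copies of it are counted once.

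The data come from yeastDrop-Seq, in which haploid BY4741 cells (MATa his3Δ1 leu2Δ0 met15Δ0 ura3Δ0) were lysed 1 by 1 in droplets with barcoded beads. There were 4 conditions with 1 library each, all grown for 18 h in CSM minimal medium with glucose: MPA (10 µM mycophenolic acid, with DMSO), MPA + Guanine (10 µM of each, with DMSO), Guanine (10 µM guanine, per the study's methods with no DMSO) and DMSO (10 µM DMSO, the vehicle). Mycophenolic acid inhibits IMP dehydrogenase, the enzyme that commits IMP to guanine nucleotide synthesis, and added guanine can enter the same nucleotide pool by salvage. The MPA library held 102788 UMIs in 85 cells, MPA + Guanine 279806 in 268, Guanine 216768 in 258 and DMSO 311199 in 233, with medians of 1165, 957, 749.5 and 1250 UMIs per cell in that order. No cell barcode was shared between libraries. Of the genes deleted in this strain, LEU2, MET15 and URA3 had 0 UMIs, while the his3Δ1 allele is an internal deletion and HIS3 therefore checks nothing. The MATa genes MFA1, MFA2, STE2 and BAR1 summed to 107 to 431 UMIs per library. Of the MATalpha genes, SAG1 alone was listed, with 7 UMIs in DMSO.

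Each condition had a single library, so nothing was tested between conditions, and a difference between conditions and a difference between libraries cannot be told apart. Cells of 1 library are not replicates of a treatment, and the 95% intervals given here cover counting error only. In each library a listed gene always reached 2 UMIs in some cell, the mark of a filter on genes within each library, so a gene listed at 0 need not have been absent. No ratio is given against such a 0. Of the 42 genes, 31 were listed in MPA, 32 in MPA + Guanine, 25 in Guanine and 34 in DMSO, and 20 were listed in all 4 libraries. Because the counts are sums over cells of a library, fewer expressing cells and less mRNA per cell cannot be told apart in them.

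The processome assembles on the precursor stepwise as it is transcribed by RNA polymerase I. The UTP-A complex binds its leading end first, the UTP-B complex and the U3 ribonucleoprotein follow, and U3 RNA base pairs with the precursor to guide the early cleavages that release the small subunit rRNA. Helicases, a GTPase and a methyltransferase then remodel the particle. In yeast the genes for these factors, with those of RNA polymerase I and other ribosome assembly proteins, are known as the ribosome biogenesis regulon, which is transcribed by RNA polymerase II and follows nutrient supply and growth rate. Its promoters are known for a pair of elements, PAC, which the repressors Dot6 and Tod6 bind, and RRPE, which Stb3 binds. Per the study's methods, doubling times were longest in MPA, next longest in MPA + Guanine, and shortest and equal in DMSO and Guanine. The part of growth rate in the levels below was not tested.

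The promoters of the 42 genes were read first, since they are a property that the list did not use and that these genes share in sequence. The 250 bases before each start codon were searched on both strands for the PAC core GATGAG, which reads CTCATC on the other strand, and for the RRPE core AAAATTTT, which is its own reverse complement. The PAC core was present in 36 of the 42 windows (85.7%) and the RRPE core in 31 (73.8%), against 17.0% and 8.65% of the windows of all 6001 protein-coding genes. Both cores stood together before 28 of the 42 genes (66.7%), against 4.08% of all genes. A further 8 genes (UTP8, UTP11, UTP18, SOF1, IMP3, RRP9, NOP9 and RCL1) had only the PAC core, 3 (UTP4, UTP15 and RRP7) had only the RRPE core, and UTP22, UTP30 and EMG1 had neither. The windows of divergently transcribed neighbours overlap, so the windows are not independent of each other, and a match of these letters is not evidence of binding.

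The following stretches, from the R64 genome and written on the strand of each gene, show how the cores lie before genes whose levels are described below. Capitals mark the PAC and RRPE cores, on either strand.
UTP14, chrXIII:82964-83012, + strand: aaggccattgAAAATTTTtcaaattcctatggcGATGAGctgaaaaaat
RRP5, chrXIII:731264-731299, - strand: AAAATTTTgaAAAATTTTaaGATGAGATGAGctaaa
BMS1, chrXVI:143262-143301, - strand: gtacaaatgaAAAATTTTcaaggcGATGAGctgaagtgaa
MPP10, chrX:438763-438805, + strand: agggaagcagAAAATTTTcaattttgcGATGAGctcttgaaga
BFR2, chrIV:1059491-1059533, + strand: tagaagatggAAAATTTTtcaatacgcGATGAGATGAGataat
ENP2, chrVII:781652-781693, + strand: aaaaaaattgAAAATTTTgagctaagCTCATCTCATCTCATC
KRR1, chrIII:23452-23490, - strand: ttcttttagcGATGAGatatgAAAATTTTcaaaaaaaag
DIP2, chrXII:399520-399559, + strand: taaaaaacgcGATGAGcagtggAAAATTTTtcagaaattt

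In the closest pair of cores, all of these but KRR1 and DIP2 have the RRPE core farther from the start codon than the PAC core. Outside its stretch KRR1 has a further RRPE core that begins 138 bases before the start codon, beyond its PAC cores. By the closest pair, the RRPE core was the farther one in 23 of the 28 genes with both (82.1%), against 61.8% of the 217 other protein-coding genes with both cores. The gap between the closest pair of cores was 2 to 41 bases with a median of 9, against a median of 13 in the other genes. RRP5, BFR2 and ENP2 carry PAC cores in tandem, each overlapping the next by 1 base. In all, 17 of the 42 windows had more than 1 PAC core, and 35 had one that began 60 to 160 bases before the start codon.

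The list of 33 other small subunit factors holds none of the 42 genes, but some of its factors are also parts of the processome. It is thus no separate later set. It had both cores in 63.6% of windows. None of the 56 windows of small subunit ribosomal protein genes, whose products the processome assembles, had both. The plot of the 4 lists sets these shares side by side.

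**Figure D1:**
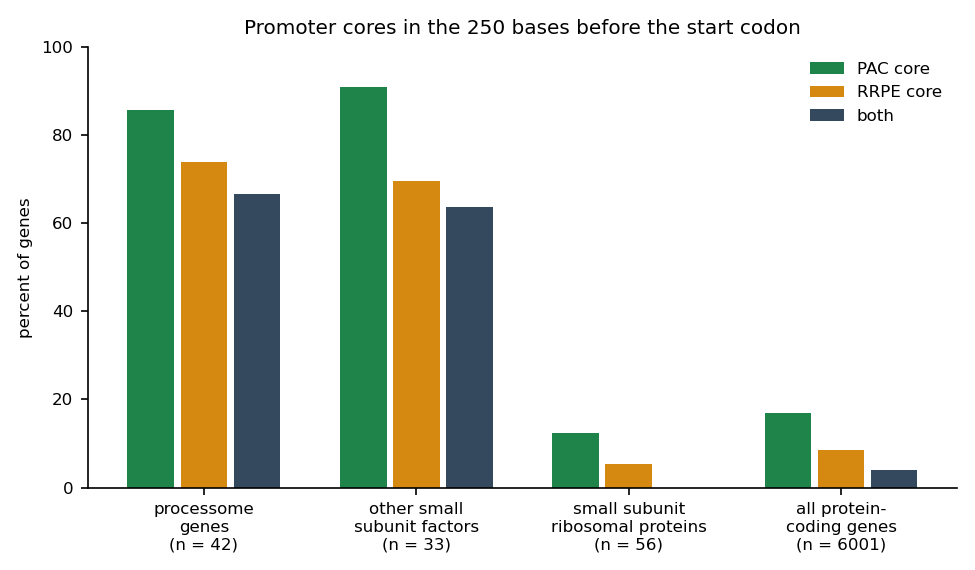
Bars give the percent of genes (y axis) whose 250 bases before the start codon hold the PAC core, the RRPE core or both, for 42 processome genes, 33 other small subunit factors, 56 small subunit ribosomal protein genes and all 6001 protein-coding genes. Both cores stand before 66.7% of the processome genes and 4.08% of all genes.

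Summed over the 42 genes, processome transcripts made up 74.4 of every 10000 UMIs in MPA (95% interval 69.2 to 79.9) and 46.6 in DMSO (44.2 to 49.0), a log2 ratio of 0.68 (0.55 to 0.80). In MPA + Guanine they made up 37.0 (34.8 to 39.4), below the vehicle level by a log2 ratio of -0.33 (-0.45 to -0.21). In Guanine they made up 24.8 (22.7 to 27.0), a log2 ratio of -0.91 (-1.06 to -0.77) over DMSO. The order of the libraries was thus MPA, DMSO, MPA + Guanine and Guanine, and no neighbours in that order had overlapping intervals. MPA + Guanine over Guanine gave 0.58 (0.43 to 0.73) and MPA + Guanine over MPA -1.01 (-1.14 to -0.87). The sizes of the ratios with MPA + Guanine rest on the scaling: with totals that leave out ribosomal protein genes they were 0.23 (0.08 to 0.39) over Guanine, -1.23 (-1.37 to -1.09) over MPA and -0.61 (-0.73 to -0.50) over DMSO, and with TMM factors 0.39, -1.01 and -0.53 in that sequence.

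The same order held for the 20 genes listed in all 4 libraries, which summed to 61.6 per 10000 in MPA, 30.0 in MPA + Guanine, 22.1 in Guanine and 36.1 in DMSO. It also held without the most counted genes UTP14, SAS10 and KRR1, with 55.8, 28.2, 18.0 and 35.6 in that sequence of libraries. Those 3 genes gave 23.5 to 27.4% of the processome UMIs of each library. Depth per cell differs between the libraries, and its part was measured in cells of 600 to 1200 UMIs, a window chosen after seeing the data. There the 42 genes made up 84.4 per 10000 in MPA, 36.4 in MPA + Guanine, 25.1 in Guanine and 43.7 in DMSO, so that the MPA over DMSO log2 ratio was 0.95 (0.72 to 1.17). The intervals of MPA + Guanine (33.1 to 39.8) and DMSO (39.4 to 48.3) overlapped in that window, with a ratio of -0.26 (-0.46 to -0.06). For the 20 genes listed in all 4 libraries that ratio was -0.18 (-0.41 to 0.04), so these 2 libraries were not separated there. Within each library, cells at or below its median UMIs kept the order, with 81.9 per 10000 in MPA, 32.8 in MPA + Guanine, 24.6 in Guanine and 42.2 in DMSO.

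Gene by gene, the MPA over DMSO ratio had a median of 0.80 over the 22 processome genes with a ratio, against 0.18 over all 1866 genes. At least 1.5-fold higher in MPA were 16 of the 22 (72.7%) and lower were 0, against a background of 25.2% of all genes at least 1.5-fold higher and 10.3% at least 1.5-fold lower. With TMM factors, a scaling that lowers this ratio for all genes alike, 11 of the 22 (50%) were higher and 0 lower, against 15.4% and 17.6% of all genes. RRP7, with 46 UMIs in DMSO and a listing at 0 in MPA, had no ratio and is in none of these counts. The genes of every processome subcomplex with a ratio had medians above that of all genes, with 0.97 for 3 UTP-A genes, 0.74 for 2 UTP-B genes, 0.62 for 3 genes of the U3 and Mpp10 group and 0.82 for 3 enzymes and cofactors. Of the 25 other small subunit factors with a ratio, 10 were at least 1.5-fold higher and 0 lower, with a median of 0.49. The 54 small subunit ribosomal protein genes had a median of -0.22, with 1 at least 1.5-fold higher and 9 lower.

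Guanine over DMSO ran the other way. The median of 20 processome genes was -0.71, against 0.05 over all 2115 genes, and 11 of the 20 (55%) were at least 1.5-fold lower with 0 higher. Of all genes 15.7% were at least 1.5-fold lower and 19.8% higher. BMS1 (65 UMIs in DMSO), RRP7 (46) and UTP8 (20) were listed at 0 in Guanine, had no ratio and are not in the processome counts. Neither is EMG1, with 21 UMIs in Guanine and a listing at 0 in DMSO. The other small subunit factors had a median of -0.31 and the small subunit ribosomal protein genes 0.18. The Guanine library lacked the DMSO that its comparator held, and the parts of guanine and of DMSO in this ratio cannot be told apart.

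In MPA + Guanine over DMSO the median of 23 processome genes was -0.28, against 0.26 over all 2351 genes. Only 3 of the 23 (13.0%; UTP14, BMS1 and ENP1) were at least 1.5-fold lower and 0 higher, against 10.8% and 27.5% of all genes. This count rests on the scaling: it was 10 of 23 (43.5%) with TMM factors, with a median of -0.49, where 16.5% of all genes were lower. With totals that leave out ribosomal protein genes it was 11 (47.8%), with a median of -0.56, where 18.6% of all genes were lower. EMG1, with 29 UMIs in MPA + Guanine and a listing at 0 in DMSO, had no ratio and is in none of these counts. Ribosomal protein genes made up 18.9% of the UMIs in MPA + Guanine, against 30.5% in MPA, 36.2% in Guanine and 33.2% in DMSO.

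MPA + Guanine over Guanine, with guanine in both libraries, had a processome median of 0.27 over 21 genes, against 0.15 over all 2130 genes. The first library held DMSO besides MPA and the Guanine library did not, so the parts of MPA and of DMSO in this ratio cannot be told apart. At least 1.5-fold higher were 6 of the 21 (28.6%) and lower were 0, against 28.4% and 18.4% of all genes, so the share of higher genes was that of the background. With totals that leave out ribosomal protein genes the median was -0.08, against -0.19 over all genes. That scaling shifts all genes alike, so the distance of 0.12 between the medians could not change. Under that scaling 5 of the 21 were at least 1.5-fold higher and 1 lower, against 17.1% and 30.5% of all genes. BMS1 (36 UMIs in MPA + Guanine), RRP7 (30) and UTP8 (13) were listed at 0 in Guanine, had no ratio and are in none of these counts. MPA + Guanine over MPA had the most negative processome median of the 5 comparisons, -1.02 over 22 genes against 0.04 over all 1881. In it 19 of the 22 (86.4%) were at least 1.5-fold lower and 0 higher, against 21.5% and 22% of all genes. RRP7 (30 UMIs in MPA + Guanine) and EMG1 (29) were listed at 0 in MPA, had no ratio and are in neither count.

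**Figure D2:**
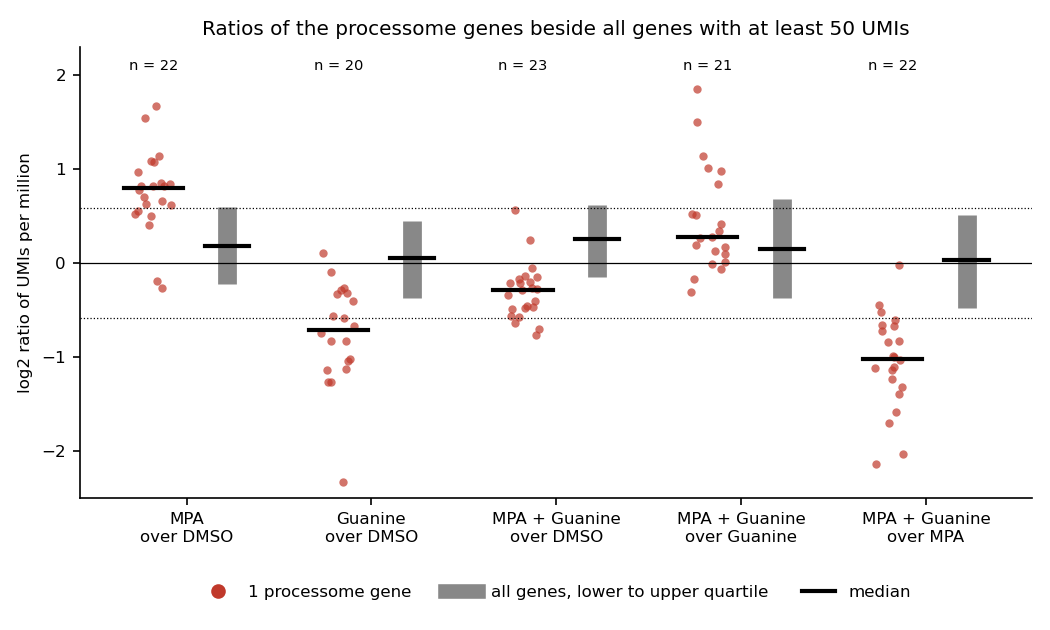
Each red point is the log2 ratio (y axis) of 1 processome gene in 1 of 5 comparisons of libraries (x axis), grey bars run from the lower to the upper quartile of all genes with at least 50 UMIs, black lines are medians and dotted lines mark 1.5-fold. The processome median is 0.80 in MPA over DMSO and -1.02 in MPA + Guanine over MPA, while that of MPA + Guanine over Guanine, 0.27, is -0.08 when totals leave out ribosomal protein genes.

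The enzymes and their cofactors held the genes with some of the widest differences. The study names UTP14 for MPA from these same libraries, so its MPA value is no independent support. UTP14 (YML093W, chromosome XIII, 83090 to 85789), the cofactor of the RNA helicase Dhr1, had 719.9 CPM (counts per 1000000 UMIs of the library) in MPA, 239 in MPA + Guanine, 198 in Guanine and 408 in DMSO. The MPA value stood above the other 3 without overlap of their counting intervals, and MPA + Guanine and Guanine could not be separated. Its log2 ratio was 0.82 (0.39 to 1.24) in MPA over DMSO, -1.04 (-1.57 to -0.53) in Guanine over DMSO and -1.59 (-2.09 to -1.09) in MPA + Guanine over MPA. UTP14 UMIs were seen in 47 of 85 MPA cells, 46 of 268 MPA + Guanine cells, 35 of 258 Guanine cells and 84 of 233 DMSO cells, at most 5 in any DMSO cell.

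RRP5 (YMR229C) encodes a long RNA-binding protein that is needed for both ribosomal subunits. It had 467 CPM in MPA, 114 in MPA + Guanine, 129 in Guanine and 161 in DMSO. The MPA library was high and the other 3 lay close together, with a log2 ratio of 1.54 (0.94 to 2.14) in MPA over DMSO and -2.03 (-2.72 to -1.35) in MPA + Guanine over MPA. In MPA + Guanine over Guanine the ratio was -0.18 (-0.95 to 0.61).

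BMS1 (YPL217C), the GTPase of the particle, had 321 CPM in MPA, 129 in MPA + Guanine and 209 in DMSO, and was listed at 0 in Guanine. Its ratio was 0.62 (-0.03 to 1.25) in MPA over DMSO and -1.32 (-2.04 to -0.59) in MPA + Guanine over MPA. Its partner RCL1 had 18 UMIs in all, 7 in MPA and 11 in DMSO. EMG1 (YLR186W), the methyltransferase of the small subunit rRNA, had the reverse listing, with 104 CPM in MPA + Guanine and 96.9 in Guanine and a listing at 0 in MPA and DMSO. It is also 1 of the 3 genes with neither promoter core. The DEAD-box helicase genes ROK1 and DBP8 stayed under 50 UMIs, ROK1 with 16 in MPA, 16 in MPA + Guanine and 16 in DMSO, and DBP8 with 10 in Guanine alone.

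The Mpp10 group joins the U3 particle. MPP10 (YJR002W), its scaffold, had 292 CPM in MPA, 204 in MPA + Guanine, 92.3 in Guanine and 138 in DMSO. Its log2 ratio was 1.08 (0.36 to 1.78) in MPA over DMSO and 1.14 (0.39 to 1.96) in MPA + Guanine over Guanine. MPA + Guanine and DMSO had overlapping intervals, with a ratio of 0.56 (-0.04 to 1.17) that was 0.36 with TMM factors. SAS10 (YDL153C), named for its effect on silencing, had 564 in MPA, 354 in MPA + Guanine, 179.9 in Guanine and 366 in DMSO. MPA + Guanine and DMSO were near equal for SAS10, with a ratio of -0.05 (-0.45 to 0.35), and the MPA over DMSO ratio was 0.62 (0.14 to 1.09).

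IMP4 (YNL075W), which binds Mpp10 and helps U3 pair with the precursor, differed least across the libraries among the 20 genes listed in all 4. It had 136 CPM in MPA, 89.3 in MPA + Guanine, 111 in Guanine and 103 in DMSO, and these intervals overlapped. Of the 22 genes, only SOF1 and ENP1 had a lower MPA over DMSO ratio than its 0.41 (-0.61 to 1.35). Its counterpart IMP3 had 13 UMIs, in DMSO alone, and RRP9, a protein of the U3 particle itself, had 10, in MPA alone.

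Of the UTP-A complex, which binds the precursor first, UTP8 (YGR128C) had the highest MPA over DMSO ratio of the 22 genes, 1.67 (0.71 to 2.63). It had 204 CPM in MPA, 46.5 in MPA + Guanine and 64.3 in DMSO, and was listed at 0 in Guanine. These values rest on 21, 13 and 20 UMIs. UTP8 had 54 UMIs in all and reached the minimum of 50 only with those of MPA, its high library, so its rank is no support. UTP5 (YDR398W) had 195 in MPA, 118 in MPA + Guanine, 41.5 in Guanine and 99.6 in DMSO. Guanine was the low library for UTP5, with a ratio of 1.51 (0.41 to 2.75) in MPA + Guanine over Guanine, though in cells of 600 to 1200 UMIs its Guanine over DMSO ratio of -1.26 became 0.56. UTP9 (YHR196W) had 165 in MPA, 92.9 in MPA + Guanine, 92.3 in Guanine and 112 in DMSO, with overlapping intervals. UTP4 (26 UMIs in all), UTP15 (37), UTP10 (10) and NAN1 (5) were too sparse for ratios.

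Of the UTP-B complex, DIP2 (YLR129W) had 292 CPM in MPA, 147 in MPA + Guanine, 115 in Guanine and 170.3 in DMSO. Its MPA over DMSO ratio of 0.78 (0.08 to 1.45) was -0.21 in cells of 600 to 1200 UMIs, so its direction rested on cells outside that window. UTP6 (YDR449C) had 146 in MPA, 67.9 in MPA + Guanine, 50.7 in Guanine and 90.0 in DMSO, the same order of libraries as the sum. UTP18 (40 UMIs), PWP2 (37), UTP21 (29) and UTP13 (8) stayed under 50. PWP2, a WD-repeat protein of the complex, was listed in DMSO alone, with 37 UMIs in 30 cells. DMSO was also the library with the most UMIs, and the part of depth in this listing was not tested.

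The UTP-C complex was the least counted. RRP7 (YCL031C) had 107 CPM in MPA + Guanine and 148 in DMSO and was listed at 0 in MPA and Guanine. Its partner UTP22 had 3 UMIs, in MPA + Guanine, in 2 cells.

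Among the other factors, KRR1 (YCL059C), an RNA-binding KH-domain protein, had 574 CPM in MPA, 286 in MPA + Guanine, 299.9 in Guanine and 321 in DMSO. The MPA library was high, and the other 3 had overlapping intervals. The MPA over DMSO ratio was 0.84 (0.35 to 1.32), and MPA + Guanine over Guanine was -0.07 (-0.56 to 0.43).

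NOP14 (YDL148C), which binds Emg1 and Noc4, had 438 CPM in MPA, 186 in MPA + Guanine, 129 in Guanine and 206 in DMSO. Its MPA over DMSO ratio was 1.09 (0.51 to 1.66). Noc4's own gene had 27 UMIs, in MPA + Guanine and Guanine only.

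BFR2, ENP2 and LCP5 encode proteins that bind one another in the particle. BFR2 (YDR299W) had 360.0 CPM in MPA, 111 in MPA + Guanine, 92.3 in Guanine and 164 in DMSO, and its MPA over DMSO ratio, 1.14 (0.48 to 1.77), was exceeded by those of UTP8 and RRP5 only. ENP2 (YGR145W) had 331 in MPA, 150.1 in MPA + Guanine, 41.5 in Guanine and 209 in DMSO. Guanine stood apart for ENP2, with 9 UMIs in 8 cells: its ratio of -2.33 (-3.52 to -1.32) over DMSO was the lowest of the 20 genes, and MPA + Guanine over Guanine, 1.85 (0.79 to 3.08), was the highest of 21. LCP5 (YER127W) had 302 in MPA, 139 in MPA + Guanine, 69.2 in Guanine and 167 in DMSO, and it too was lowest in Guanine, with a ratio of -1.27 (-2.21 to -0.42) over DMSO. Guanine was thus the lowest library for all 3.

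SOF1 and ENP1 were the only 2 of the 22 genes with a ratio below 0 in MPA over DMSO. SOF1 (YLL011W), a WD-repeat protein found through a fibrillarin mutant, had 185 CPM in MPA, 182 in MPA + Guanine, 101 in Guanine and 222 in DMSO, with a ratio of -0.26 (-1.08 to 0.49). Its MPA and MPA + Guanine values were alike, and Guanine was low. ENP1 (YBR247C), which stays on the particle through later steps and export, had 107 in MPA, 78.6 in MPA + Guanine, 55.4 in Guanine and 122 in DMSO, with a ratio of -0.19 (-1.31 to 0.81). In cells of 600 to 1200 UMIs the MPA over DMSO ratio was 0.60 for SOF1 and 0.50 for ENP1, so neither sign held there, and in that window DIP2 and UTP11 were the 2 genes below 0. ENP1 also reached 0.12 in Guanine over DMSO and 0.53 in MPA + Guanine over DMSO in those cells, against -1.14 and -0.64 in all cells.

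UTP23 (YOR004W), a protein with a PIN-type domain, had 302 CPM in MPA, 114 in MPA + Guanine, 101 in Guanine and 170.3 in DMSO, with an MPA over DMSO ratio of 0.82 (0.14 to 1.49). UTP7 (YER082C), a WD-repeat protein, had 204 in MPA, 100.1 in MPA + Guanine, 87.7 in Guanine and 116 in DMSO. UTP11 (YKL099C) had 204 in MPA, 114 in MPA + Guanine, 115 in Guanine and 145 in DMSO. These 3 genes shared the order of the highest library, MPA, and the next, DMSO. FAF1 (YIL019W), needed for early precursor cleavage, had 175 in MPA, 111 in MPA + Guanine, 101 in Guanine and 122 in DMSO, and its intervals overlapped. UTP30 (35 UMIs), NOP9 (26) and UTP20 (17) stayed under 50, and UTP20, the gene of the longest protein on the list, had its 17 UMIs in MPA (4) and DMSO (13).

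Across the 20 genes listed in all 4 libraries, MPA was the highest library for 18 and DMSO for the other 2, SOF1 and ENP1. Guanine was the lowest for 16 and MPA + Guanine for 4. The full order MPA, DMSO, MPA + Guanine and Guanine was found in 12 of the 20. These counts were not taken over all genes, so they have no background beside them. Over all 1641 genes with at least 50 UMIs that were listed in all 4 libraries, median ratios were 0.17 in MPA over DMSO and -0.01 in Guanine over DMSO. The 18 genes under 50 UMIs summed to 399 of the 3787 processome UMIs, with 78 in MPA, 89 in MPA + Guanine, 38 in Guanine and 194 in DMSO.

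**Figure D3:**
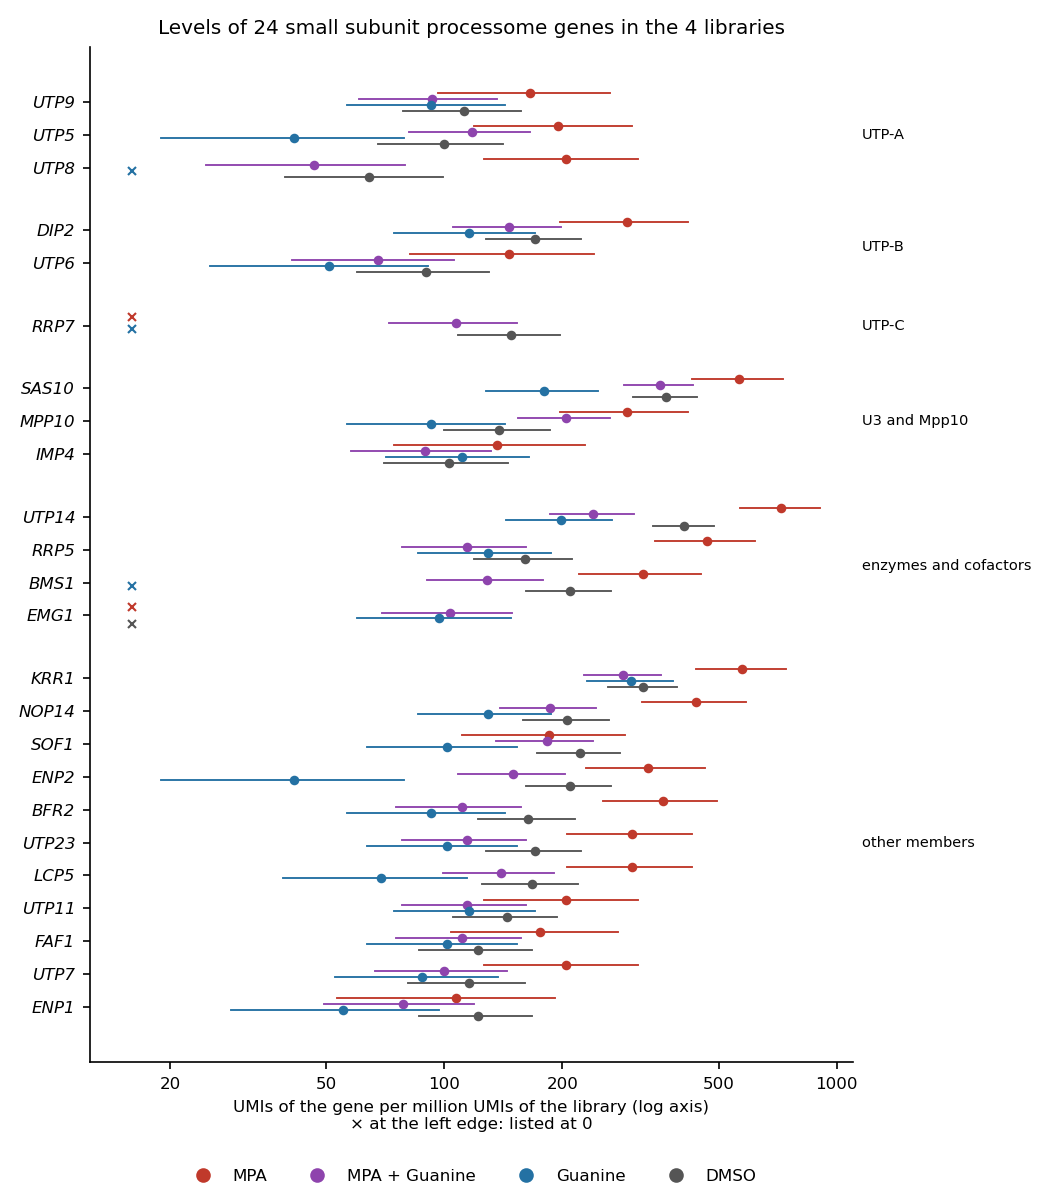
Points give the CPM of each gene (UMIs per 1000000 UMIs of the library; x axis, log scale) for the 24 processome genes with at least 50 UMIs (y axis, by subcomplex), in MPA, MPA + Guanine, Guanine and DMSO; lines are exact 95% Poisson intervals and crosses at the left edge mark a listing at 0. MPA is the highest library for 18 of the 20 genes listed in all 4, a count that was not taken over all genes.

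MPA over DMSO and MPA + Guanine over Guanine share no library. Both set a library with MPA over one without it, but only in MPA over DMSO did both libraries hold DMSO, so the pair is not the same contrast without and with guanine. Of the 20 genes with both ratios, 14 were above 0 in both and 0 were below 0 in both. Of all 1641 genes with both ratios, 658 were above 0 in both, 340 below 0 in both and 643 of opposite sign. The 14 became 11 with TMM factors and 7 with totals that leave out ribosomal protein genes. The all-gene counts were not taken under the other settings. The ratio with guanine was the smaller one for 13 of the 20, against 815 of the 1641 genes. The median difference was -0.47, against 0.01 over the 1641 genes. Across the 20 genes the pair of ratios had a Pearson correlation of -0.05 and a Spearman correlation of 0.11, against 0.32 and 0.30 across all 1641 genes. These are descriptions across genes, which share libraries and are no replicates. RRP5, KRR1, IMP4 and UTP11 were above 0 without guanine and below 0 with it. This set follows the processing: it held 11 genes with totals that leave out ribosomal protein genes, which lower MPA + Guanine over Guanine for all genes alike, 3 (IMP4, KRR1 and RRP5) without cells in which 1 gene held over 10% of the UMIs, and 2 (IMP4 and RRP5) without cells under 400 UMIs, where 16 genes were above 0 in both. SOF1 and ENP1 were the reverse, though not in cells of 600 to 1200 UMIs. ENP2, UTP5, MPP10, LCP5, SAS10 and SOF1 were the 6 genes at least 1.5-fold higher in MPA + Guanine over Guanine.

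**Figure D4:**
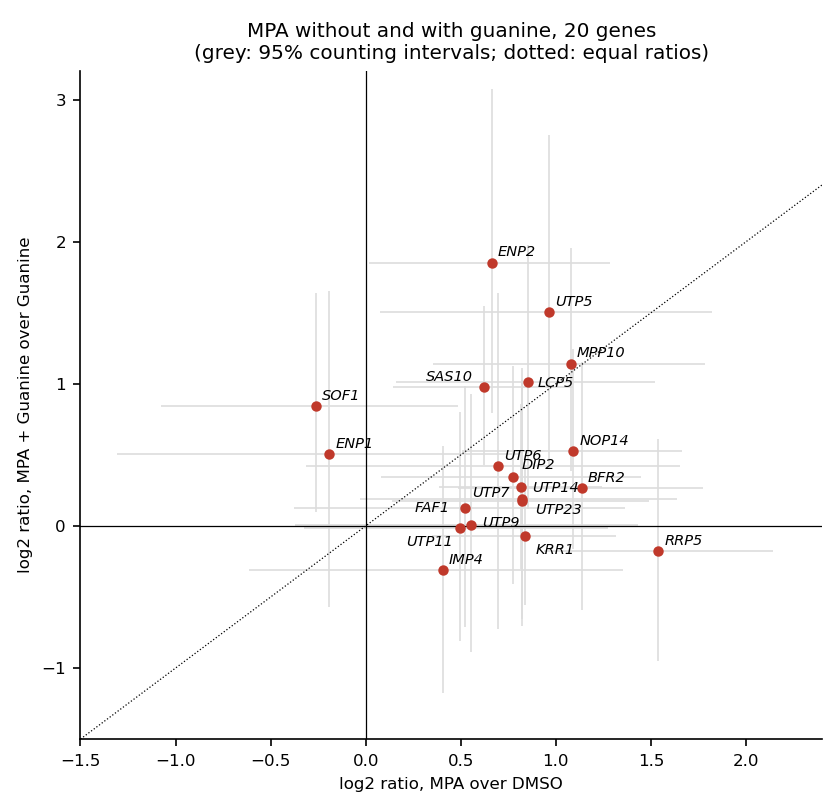
Each point is 1 of 20 processome genes, with its log2 ratio in MPA over DMSO on the x axis and in MPA + Guanine over Guanine on the y axis; grey lines are exact 95% counting intervals and the dotted line marks equal ratios. Of the 20 points, 14 lie above 0 on both axes and 13 lie below the dotted line, against 658 and 815 of all 1641 genes. With totals that leave out ribosomal protein genes 7 of the 20 lie above 0 on both axes.

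In single cells the processome UMIs were few. The median cell had 7 of them in MPA, 3 in MPA + Guanine, 2 in Guanine and 5 in DMSO, and no gene exceeded 6 UMIs in a cell. Per 1000 UMIs of the cell, the median was 7.10 in MPA (quartiles 4.49 and 10.3), 2.97 in MPA + Guanine (1.41 and 5.31), 2.06 in Guanine (0.909 and 3.64) and 4.17 in DMSO (2.17 and 6.17). The lower quartile of MPA was above the median of each of the other 3 libraries. Cells with no processome UMI were 1 of 85 in MPA, 29 of 268 in MPA + Guanine (10.8%), 59 of 258 in Guanine (22.9%) and 23 of 233 in DMSO (9.87%). These shares rest on depth as well as level, and the Guanine library had the lowest median UMIs per cell.

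The counts per cell spread more than Poisson counts of the cells' own depths would. The variance was 3.84 times the Poisson value in MPA, 2.20 in MPA + Guanine, 1.44 in Guanine and 2.31 in DMSO. After the counting part was taken off, the squared coefficient of variation of the processome share was 0.32 in MPA, 0.31 in MPA + Guanine, 0.21 in Guanine and 0.21 in DMSO. Across the cells of a library, the processome share went with the share of the other small subunit factors, which are different genes, at a Spearman correlation of 0.68 over 85 cells in MPA, 0.31 over 268 in MPA + Guanine, 0.23 over 258 in Guanine and 0.47 over 233 in DMSO. With the share of small subunit ribosomal protein genes it was 0.06 in MPA, 0.19 in MPA + Guanine, 0.26 in Guanine and 0.09 in DMSO. All of these shares have the cell's total as denominator and come from sparse counts, so the values below 0.3 are no finding.

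**Figure D5:**
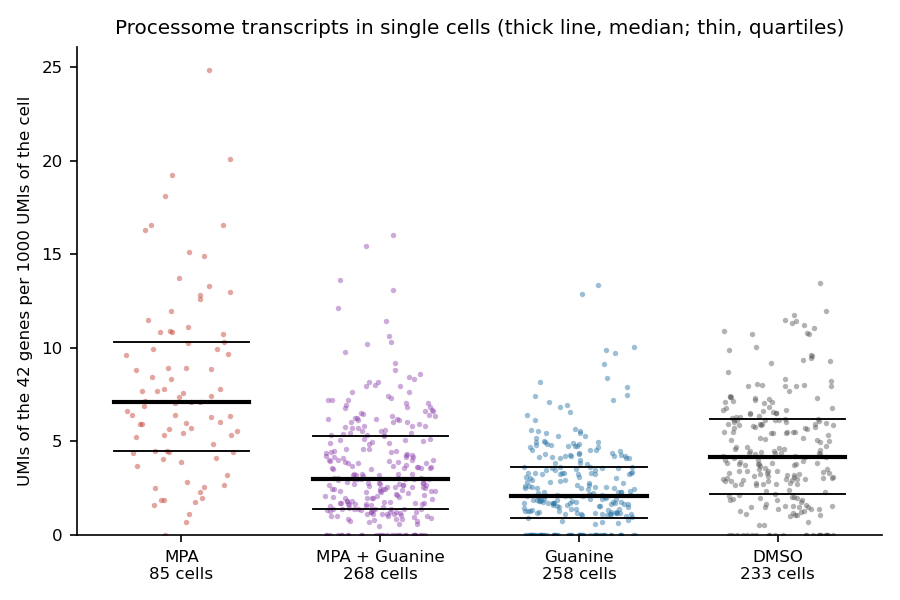
Each point is 1 cell, with the UMIs of the 42 processome genes per 1000 UMIs of the cell on the y axis, by library on the x axis; thick lines are medians and thin lines quartiles. The median is 7.10 in 85 MPA cells and 4.17 in 233 DMSO cells, with 2.97 in MPA + Guanine and 2.06 in Guanine.

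The deposited SC3 labels come from these same counts, so differences between the labelled cells are descriptions. They divide the libraries other than MPA into subclusters. In MPA + Guanine the 42 genes made up 41.8 per 10000 UMIs (39.0 to 44.8) in the 166 cells of subcluster MG.1, 26.7 (23.0 to 30.8) in the 77 cells of MG.2 and 24.4 (17.5 to 33.3) in the 25 of MG.3. Those of MG.2 and MG.3 were near the Guanine library, whose subclusters had 28.4 in 135 cells and 21.8 in 123. The DMSO subclusters had 49.1 in 177 cells and 37.1 in 56. Median UMIs per cell moved with these values in MPA + Guanine (1097.5, 807 and 666) and DMSO (1304 and 1026.5) but not in Guanine (673 and 934), and their part was not tested.

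In the deposited clustering of all cells together, with 4 clusters, 80 of the 85 MPA cells fell in cluster 3, with 77.8 processome UMIs per 10000 (72.3 to 83.6). The 16 DMSO cells in that cluster had 72.1 (62.5 to 82.8), against 46.4 in the 175 DMSO cells of cluster 1. The 60 MPA + Guanine cells in cluster 3 had 37.4 (32.6 to 42.8), close to the 34.4 of the 146 in cluster 4, and the 8 Guanine cells had 19.6 (8.46 to 38.6). Within cluster 3, MPA and DMSO cells had overlapping intervals and MPA + Guanine cells were lower than both.

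Genes outside the list that carry both promoter cores were set beside the list. In MPA over DMSO, 132 such genes had a median ratio of 0.49 (quartiles 0.24 and 0.80), and 1349 genes with neither core had 0.12 (-0.26 and 0.53). In Guanine over DMSO the medians were -0.38 over 133 genes with both cores and 0.09 over 1550 with neither. In MPA + Guanine over MPA they were -0.86 over 129 genes and 0.14 over 1365, and in MPA + Guanine over DMSO -0.38 over 139 and 0.32 over 1733. In MPA + Guanine over Guanine they were -0.01 over 128 and 0.22 over 1568. There the processome genes were at the background share for higher genes only (28.6% against 28.4%), with 0 lower against 18.4% of all genes. The genes with both cores include other ribosome assembly genes, and whether the cores or the shared pathway go with these ratios cannot be told apart.

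No processome gene overlaps another annotated gene, but some face a convergent neighbour, the nearest being SPO74 at 68 bases from ROK1. Whether the counting used strand was not given in the sources used here, so reads that run on from such a neighbour were not separated.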

How the data were processed

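Single cells of 4 conditions, with 1 library each, were measured by yeastDrop-Seq. Per the study's methods, the authors trimmed reads with Trimmomatic 0.39, aligned them to R64-1-1 with STAR 2.7.5a, counted UMIs with UMI-tools 1.0.1 and removed outlying cells with scater 1.12.2. The authors deposited the UMI counts per gene and cell without normalization, in 1 matrix of 4777 genes and 844 cells, with SC3 1.15.1 cluster labels that were used as given. Per-sample columns left unused numbered 0.

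UMIs were summed per library and gene and scaled to 1000000 (CPM) or 10000 UMIs, with exact Poisson intervals. Log2 ratios of CPM have no pseudocount and exact conditional binomial (Clopper-Pearson) intervals, at the 95% level. Ratios were taken for genes with at least 50 UMIs and counted as higher or lower at 1.5-fold. No doublets were removed; an alternative left out the 5% of cells per library with the most UMIs. The members and lists were chosen with earlier results of these data known. By rule, values in all libraries were given for genes with at least 100 UMIs, UTP14 and the 3 highest and 3 lowest MPA over DMSO ratios, and 5 further genes with at least 50 UMIs were added; the rest were named with their UMIs.

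Promoter windows came from the RefSeq R64 genome and gene models, which hold coding regions only. Gene names came from RefSeq, which matched 4606 of the 4777 genes. Alternatives were TMM factors, totals without ribosomal protein genes, means over cells, other minimum counts, a 2-fold threshold and subsets of cells. The steps were tested on simulated data. Tools were python 3.11.15, numpy 2.4.6, scipy 1.17.1, pandas 2.3.3, matplotlib 3.10.9, R 4.3.3 and edgeR 4.0.16 (TMM only).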

Additional observations from a re-analysis of the deposited data

Results flagged for a closer look

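For 6 of 20 genes the ratios MPA over DMSO (no guanine) and MPA + Guanine over Guanine (guanine in both) had opposite signs. Of all genes 643 of 1641 did, so opposite signs were not more frequent among the processome genes. The difference was not tested, since each condition had 1 library. The Guanine library alone held no DMSO, so the second ratio changes MPA and DMSO together. The second log2 ratio minus the first was -1.71 for RRP5, -0.91 for KRR1, -0.71 for IMP4 and -0.51 for UTP11, with 1.11 for SOF1 and 0.70 for ENP1. IMP4 also had opposite signs in Guanine over DMSO (0.11), where DMSO differs too, and in MPA + Guanine over MPA (-0.61), with the same difference of -0.71. For that pair it was the only 1 of 20 genes, against 734 of 1641 of all genes. Of these ratios, those of RRP5 (1.54) and KRR1 (0.84) in MPA over DMSO and of SOF1 (0.84) in MPA + Guanine over Guanine had counting intervals that left out 0.
In cells of 600 to 1200 UMIs, SOF1, ENP1 and UTP11 each had the other sign in MPA over DMSO, and without cells under 400 UMIs KRR1 and UTP11 were above 0 in both ratios.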

How the results depend on the processing

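No paired analysis was possible because each condition had 1 library, and for the same reason no library could be left out. Of 211 alternative values for medians, counts and summed shares, 176 stayed within the interval of the value or within 1.5 times the count. For medians that interval was taken from the spread of the ratios across the processome genes. It is no counting interval, and genes are no replicates, so for medians the tally is a description only. Of the medians past 1.5-fold, 0 changed sign. The MPA over DMSO median was 1.02 with the mean of each cell's CPM and 1.16 in cells of 600 to 1200 UMIs. The MPA + Guanine over DMSO median was -0.49 with TMM factors and -0.56 with totals that leave out ribosomal protein genes, and the MPA + Guanine over Guanine median was 0.083 and -0.075 with those scalings. With TMM factors the median of all genes was -0.03 in MPA over DMSO and 0.05 in MPA + Guanine over DMSO. Without them it was 0.18 and 0.26. TMM factors and totals without ribosomal protein genes shift all ratios of a comparison alike. A processome median's distance from that of all genes therefore could not change with either scaling.

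The count of genes at least 1.5-fold lower in MPA + Guanine over DMSO was 10 with TMM factors, 11 without ribosomal protein genes in the totals, 6 without the 5% of cells richest in UMIs, and 5 with a minimum of 20 UMIs, without cells in which 1 gene held over 10% of the UMIs, without the top cell of each gene, or in cells of 600 to 1200 UMIs. Of all genes 16.5%, 18.6%, 11.4%, 9.83%, 10.8%, 11.2% and 14.2% were lower under these 7 settings in the same sequence, against 10.8% in the values reported. The count higher in it was 1 with the mean of each cell's CPM, without those 5% of cells or without the top cell of each gene, and 2 in cells of 600 to 1200 UMIs. Of all genes 27.1%, 28.6%, 28.5% and 32.3% were higher under these settings in the same sequence. MPA + Guanine over Guanine had 1 gene lower without ribosomal protein genes in the totals, where 30.5% of all genes were lower. At 2-fold, 5 genes were higher in MPA over DMSO (8.09% of all genes), 7 lower in Guanine over DMSO (5.01%), 0 lower in MPA + Guanine over DMSO (2.55%) and 12 lower in MPA + Guanine over MPA (8.67%).

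Per 10000 UMIs, totals without ribosomal protein genes gave 107 in MPA, 45.6 in MPA + Guanine, 38.8 in Guanine and 69.7 in DMSO; the 20 genes listed in all libraries gave 61.6, 30.0, 22.1 and 36.1 in the same sequence. Cells at or below the median UMIs gave 81.9 in MPA, 32.8 in MPA + Guanine and 42.2 in DMSO, and cells of 600 to 1200 UMIs 84.4 in MPA and 43.7 in DMSO.

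Of 1150 values for single genes, 1134 stayed within the counting interval. These include 108 with a minimum of 20 UMIs, 78 with a minimum of 100 and 100 for genes listed in all 4 libraries. Those settings only choose genes and leave each ratio as it is, so their values could not move. Among the 1150 values, 47 had the other sign, 43 of them for ratios within 1.5-fold, such as SOF1, ENP1 and UTP11 in MPA over DMSO. The 4 for ratios past 1.5-fold were DIP2 in MPA over DMSO (-0.21), UTP5 and ENP1 in Guanine over DMSO (0.56 and 0.12) and ENP1 in MPA + Guanine over DMSO (0.53), all in cells of 600 to 1200 UMIs. Depth limits the single genes, of which 18 of 42 had under 50 UMIs.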
